A study of Mus musculus with 6 samples.

Results

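The ETS genes described here are 10 transcription factor genes, found by matching their symbols to the Ensembl identifiers of the deposited count table. All 10 were found among its 51912 identifiers. They are the 3 genes of the PEA3 group (Etv1, Etv4 and Etv5) and 7 other ETS genes (Ets1, Ets2, Etv6, Elk1, Elk3, Elk4 and Gabpa). They were measured by messenger RNA sequencing of R1 cells, an established mouse embryonic stem cell line. Both groups came from cells grown in 2iLIF, a medium with inhibitors of MEK and GSK3 and the cytokine LIF, and then moved to N2B27 with FGF2 at 100 ng/ml. The first group of 3 libraries was taken after 24 h and the second group of 3 after 48 h. Both groups therefore carried the same change of medium and the same FGF2 dose, and no library without FGF2 was analysed here. The labels do not say whether replicates were separate cultures, so the p-values measure the spread between these libraries, which may be technical.

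ETS factors share a winged helix-turn-helix DNA-binding domain that recognises sites with a GGAA core. FGF receptors signal through RAS, MEK and ERK, and transcription of the PEA3 genes rises with this signal in many embryonic tissues, so they are commonly used as readouts of FGF activity. ELK1, ELK3 and ELK4 act with the serum response factor SRF as ternary complex factors, which ERK phosphorylates. ETS1 and ETS2 are also ERK substrates. ETV6 is a transcriptional repressor, and GABPA binds DNA as the alpha subunit of GABP, whose beta subunits carry the activating function.

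The shared domain can be seen in the 48 bases that encode the second ETS-domain signature pattern of PROSITE, which covers the DNA-contacting helix. They are shown because reads from the most alike stretches are the hardest to assign to 1 member. Sequences are from the GENCODE M21 transcripts (GRCm38), 5′ to 3′ on the coding strand, and capitals mark bases that differ from Etv5.
Etv5: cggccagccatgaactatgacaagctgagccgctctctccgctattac
Etv4: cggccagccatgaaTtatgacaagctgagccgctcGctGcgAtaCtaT
Etv1: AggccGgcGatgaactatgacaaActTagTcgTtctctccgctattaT
Elk3: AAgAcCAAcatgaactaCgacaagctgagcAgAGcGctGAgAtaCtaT
Ets2: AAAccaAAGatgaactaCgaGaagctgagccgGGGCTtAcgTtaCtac
Etv6: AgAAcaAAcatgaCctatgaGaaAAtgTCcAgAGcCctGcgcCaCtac
The PEA3 stretches lie in exon 12 of 13 of each gene, at chr16:22386781-22386828 for Etv5 (minus strand), chr11:101770993-101771040 for Etv4 (minus strand) and chr12:38861317-38861364 for Etv1 (plus strand). The other stretches lie at chr10:93284778-93284825 (Elk3, minus strand), chr16:95718953-95719000 (Ets2, plus strand) and chr6:134263022-134263069 (Etv6, plus strand). Etv4 differed from Etv5 at 6 bases and Etv1 at 8 bases, and 0 of their codons encoded another residue. Elk3 and Ets2 each differed at 16 bases and in 4 codons, and Etv6 differed at 18 bases and in 7 codons.

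Despite this likeness, no stretch of 50 bases was shared between the transcripts of any 2 of the 10 members. Etv5 shared 24.5% of its 50-base stretches with Gm4798, a processed pseudogene, whose own counts were between 0.0615% and 0.161% of those of Etv5 in a library. Etv1 shared 9.08%, mostly with the processed pseudogene Gm5454, whose counts were between 0.486% and 0.809% of those of Etv1. Counts of both genes were fractional, which means that reads had been divided between genes, and 1 library of Elk4 was fractional too. The other 7 members had whole-number counts in every library.

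Library totals lay between 19574969 and 23133148 estimated counts. Each pair of replicates differed by more than counting noise, with a chi-square of 1.80 to 2.25 per degree of freedom. The labelled cell type was checked against 7 embryonic stem cell markers, whose summed level was 4940 to 4993 CPM (counts scaled to the library total) at 24 h and 3079 to 3166 CPM at 48 h. Of these 7 markers, 6 were lower and Utf1 was higher at 48 h. The 6 primitive endoderm markers summed to 46.3 to 54.3 CPM at 24 h and 13.8 to 14.04 CPM at 48 h. Of them, 4 had no more than 12 counts in any library. The primitive endoderm sum was mostly Lama1. The 5 trophoblast markers, mostly through Tfap2c, summed to 7.23 to 7.76 CPM and 2.17 to 2.39 CPM. The 6 endothelial and blood markers, mostly through Pecam1, summed to 81.8 to 87.4 CPM and 44.2 to 47.7 CPM. Among the latter, Cdh5 and Ptprc had at most 2 counts in a library. The 6 neural markers summed to 139 to 149 CPM and 154 to 168 CPM, with Pax6, Sox1 and Map2 higher and Tubb3, Nes and Zfp521 lower at 48 h. The 5 primitive streak markers, mostly through Eomes, summed to 15.7 to 18.5 CPM and 12.8 to 14.8 CPM. The 6 fibroblast markers summed to 2.54 to 3.35 CPM and 2.53 to 3.83 CPM. Among them, Dcn had 0 counts in each 24 h library and 23, 25 and 32 at 48 h, while Col1a1 went from 16, 21 and 30 counts to 4, 9 and 7. Of all these, only Postn, a fibroblast marker, was at 0 in every library. In bulk RNA, fewer cells of a type cannot be told apart from less RNA per cell.

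Between 24 h and 48 h of FGF2, most ETS members fell a little. Calls come from the quasi-likelihood test of edgeR over 14889 genes, with 0.05 as the bound on the adjusted p, and fold changes are 48 h over 24 h. All 10 members passed the filter on low counts. Of them, 8 changed, 6 downward (Etv4, Ets2, Elk1, Elk3, Elk4 and Gabpa) and 2 upward (Etv5 and Etv6). Over all genes tested, 62.8% were called, 31.9% downward and 30.9% upward. For the same 8 members the libraries of the 2 times were fully separate, against 66.9% of all genes tested, 34.2% lower and 32.7% higher at 48 h. The median log2 fold change of the 10 members was -0.22, and that of all genes tested was -0.01. Only Elk3 changed by at least 2-fold, which 11.2% of all genes did. The remaining changes were between 5.34% and 27.3% in size.

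**Figure D1:**
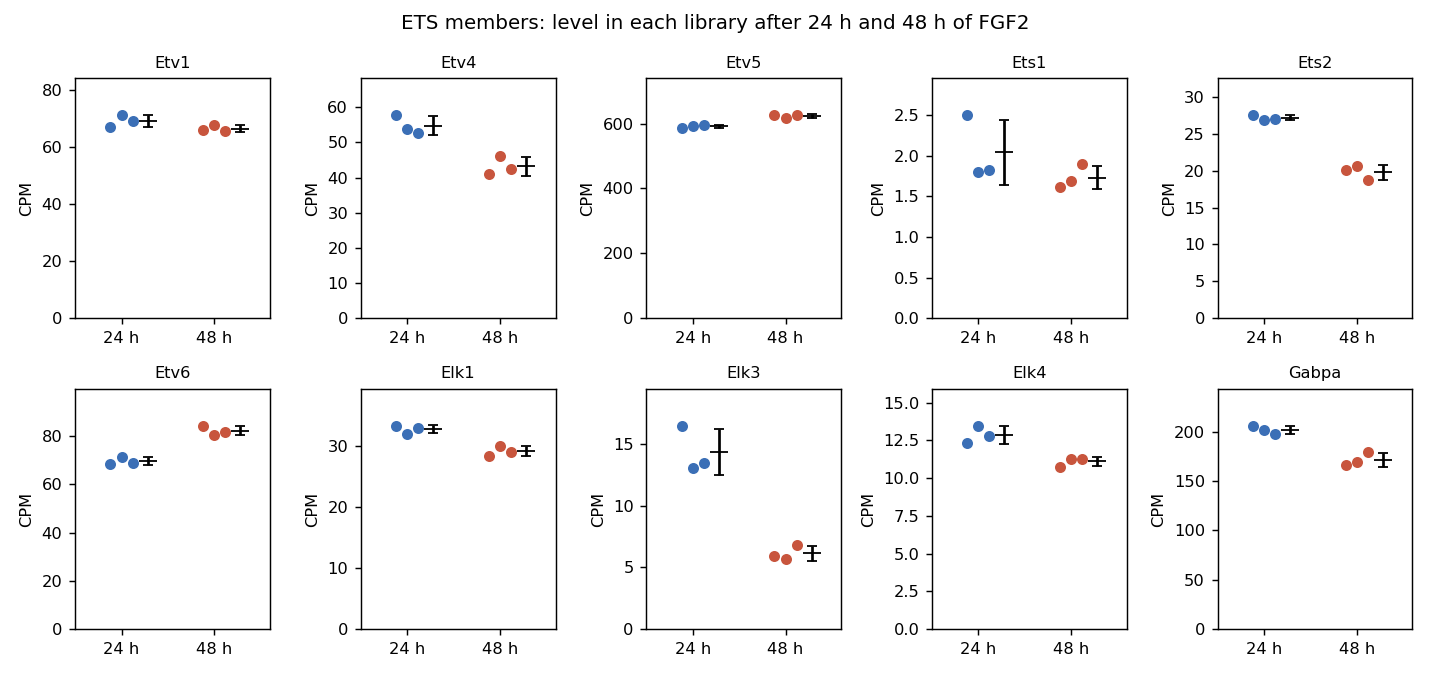
Level of each of the 10 ETS members in CPM (linear axes from 0), with 1 point per library at 24 h and 48 h and black bars for the mean and SD of 3 libraries. Points of the groups overlap for Etv1 and Ets1 and are separate for the other 8 members.

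Etv5 (chr16:22381309-22439719, minus strand), the PEA3 factor that is required for self-renewal of spermatogonial stem cells, was the most abundant member. It measured 587, 593 and 594 CPM in the 24 h libraries and 626, 617 and 626 CPM in the 48 h libraries. Every 48 h library lay above every 24 h library, but the step was small against the level. Mean levels were 591 ± 4.22 CPM at 24 h and 623 ± 5.62 CPM at 48 h (SD, n = 3), a difference of 0.08 ± 0.02 (SE) on the log2 scale (edgeR adjusted p = 0.0007). When libraries were scaled by their totals alone, it was 0.01 (adjusted p = 0.439), and the call of Etv5 was lost.

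Etv4 (chr11:101769742-101785371, minus strand), the founding gene of the PEA3 group, measured 57.8, 54.0 and 52.6 CPM at 24 h and 41.1, 46.1 and 42.4 CPM at 48 h. All 48 h libraries were lower than all 24 h libraries. Etv4 fell from 54.8 ± 2.70 to 43.2 ± 2.63 CPM (SD, n = 3). Its log2 fold change was -0.34, with a 95% interval from -0.44 to -0.24 (adjusted p = 1.1e-05). It kept its direction and call in all 16 alternative fits, with an adjusted p of at most 0.00012.

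Etv1 (chr12:38779380-38870484, plus strand), known from motor circuits and from prostate cancer fusions, measured 67.1, 71.1 and 68.9 CPM at 24 h and 65.8, 67.6 and 65.5 CPM at 48 h. The groups overlapped. Its log2 fold change was -0.06 with a 95% interval from -0.13 to 0.01 (adjusted p = 0.15). When libraries were scaled by their totals alone it was -0.12 and passed (adjusted p = 0.00651).

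The 2 PEA3 genes with a call thus moved in opposite directions. Relative to Etv5, there were 16.4, 15.1 and 14.7 Etv4 per 100 Etv5 in the 24 h libraries and 10.9, 12.4 and 11.2 in the 48 h libraries, both per kb of the longest transcript. This ratio is taken within a library, so no scaling enters it. The log2 ratio changed by -0.42, with no overlap between the groups (two-sided exact permutation test p = 0.1, the smallest that 3 against 3 libraries can give). Etv5 made up 81.7% ± 0.526 of the summed PEA3 level per kb at 24 h and 84.8% ± 0.695 at 48 h (SD, n = 3).

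**Figure D2:**
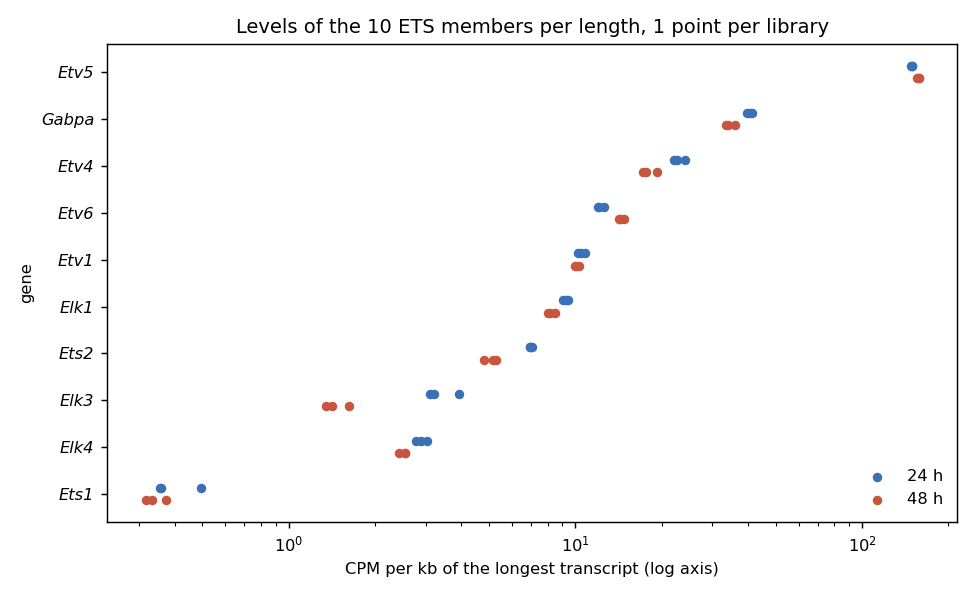
Levels of the 10 members in CPM per kb of the longest annotated transcript, on a log axis, with 1 point per library and genes ordered by their mean at 24 h. Etv5 lies near 150 CPM per kb and Ets1 below 0.5, and the order of Elk3 and Elk4 differs between the times.

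Per kb of length, the order at 24 h was Etv5 (148.8 ± 1.06 CPM per kb, SD, n = 3), Gabpa (40.6 ± 0.814), Etv4 (22.9 ± 1.13), Etv6 (12.2 ± 0.299), Etv1 (10.5 ± 0.309), Elk1 (9.23 ± 0.192), Ets2 (6.98 ± 0.0853), Elk3 (3.41 ± 0.446), Elk4 (2.90 ± 0.132) and Ets1 (0.402 ± 0.0783). No neighbours in this order overlapped between libraries. At 48 h Elk4 (2.51 ± 0.0668) stood above Elk3 (1.46 ± 0.148), and the other places were as before. The lengths of the transcripts in use are not known. With the median in place of the longest annotated length, Ets2 came before Elk1 at both times and Etv6 before Etv4 at 48 h.

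Elk3 (chr10:93247414-93311135, minus strand), a ternary complex factor that represses transcription until ERK acts on it, showed the largest change of the members. It measured 16.5, 13.1 and 13.5 CPM at 24 h and 5.94, 5.67 and 6.86 CPM at 48 h. The highest 48 h library lay below the lowest 24 h library. Elk3 fell by 57.0%, a log2 fold change of -1.22 with a 95% interval from -1.45 to -0.99 (adjusted p = 4.67e-08). A fall of at least 2-fold was called for 6.63% of all genes tested. In GENCODE M21, 316 exon bases of Elk3 overlap those of Cdk17 on the opposite strand. Cdk17 rose from 50.3 ± 1.66 to 66.5 ± 1.04 CPM (SD, n = 3), or by 0.40 on the log2 scale (adjusted p = 5.62e-08). Whether counting used strand is not given in the sources used here. Neither Elk3 nor Cdk17 showed a fractional count in any library, so the counts give no sign of reads divided between them. The part of the overlap in the change of Elk3 was not tested.

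The other ternary complex factors fell less. Elk1 (chrX:20933395-20950608, minus strand), an ERK substrate, measured 33.3, 32.0 and 33.0 CPM at 24 h and 28.4, 29.98 and 28.9 CPM at 48 h, without overlap. It fell by 11.2%, which is -0.17 ± 0.05 (SE) on the log2 scale (adjusted p = 0.00387). Elk1 shares 76 exon bases with Uxt on the same strand. Elk4 (chr1:132007607-132032612, plus strand), also called SAP-1, measured 12.3, 13.5 and 12.8 CPM at 24 h and 10.8, 11.3 and 11.3 CPM at 48 h. Its groups did not overlap, and the change was -0.21 ± 0.08 (SE) on the log2 scale (adjusted p = 0.0275). Elk4 kept its call in 11 of 16 alternatives. The call was lost in DESeq2 (adjusted p = 0.13) and at the threshold of 0.01. It was also lost when replicate 2 (0.105) or replicate 3 (0.0513) of 24 h or replicate 1 of 48 h (0.085) was left out.

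Ets2 (chr16:95702075-95721051, plus strand), an ERK substrate with a role in trophoblast development, measured 27.5, 26.9 and 27.0 CPM at 24 h and 20.02, 20.6 and 18.7 CPM at 48 h. The 24 h libraries lay within 1 CPM of each other and all above the 48 h libraries. Ets2 fell by 27.3%, which is -0.46 ± 0.06 (SE) on the log2 scale (adjusted p = 2.06e-06). Of the trophoblast markers, Tfap2c fell from 6.60 ± 0.101 to 1.55 ± 0.235 CPM (SD, n = 3), Gata3 did not pass (adjusted p = 0.155), and Cdx2, Krt7 and Hand1 had at most 5 counts in a library. Whether trophoblast cells were present, or had a part in the change of Ets2, was not tested. Ets1 (chr9:32636221-32757820, plus strand), the close relative of Ets2 known from lymphoid and endothelial cells, was the lowest member. It had 50, 37 and 43 counts at 24 h and 35, 37 and 42 counts at 48 h, and the groups overlapped. Its log2 fold change of -0.23 had a 95% interval from -0.66 to 0.20 (adjusted p = 0.336), so a change of the size seen in Ets2 was not distinguishable at this depth. Without replicate 1 of 24 h the value of Ets1 was -0.07 (adjusted p = 0.816).

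Etv6 (chr6:134035700-134270158, plus strand), the repressor also called TEL, showed the largest rise. It measured 68.4, 71.5 and 68.8 CPM at 24 h and 84.4, 80.7 and 81.7 CPM at 48 h. All 48 h libraries lay above all 24 h libraries. Etv6 rose by 18.2%, which is 0.24 ± 0.03 (SE) on the log2 scale (adjusted p = 7.35e-06). Its 135 exon bases opposite Gm17089 carried at most 2 counts for that gene in a library.

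Gabpa (chr16:84834925-84863779, plus strand), an activator of many housekeeping and mitochondrial genes, was the second most abundant member per kb. It measured 206.4, 202 and 198 CPM at 24 h and 167, 169 and 179.9 CPM at 48 h. The groups did not overlap. Gabpa fell by 14.9%, which is -0.23 ± 0.03 (SE) on the log2 scale (adjusted p = 2.02e-06). It overlaps 397 exon bases of Atp5j on the opposite strand, which fell from 100.8 ± 4.57 to 90.5 ± 1.57 CPM (SD, n = 3), a change of -0.16 on the log2 scale (adjusted p = 0.000806).

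The PEA3 group was then set against the other 7 members. Of the PEA3 genes, 1 rose, 1 fell and 1 did not pass, with a median log2 fold change of -0.06. Of the other 7, 1 rose, 5 fell and 1 did not pass, with a median of -0.23, which is the value of Ets1. Among all genes tested, 62.8% were called, 31.9% downward and 30.9% upward. Summed over genes, the PEA3 group held 711 to 718 CPM at 24 h and 730.3 to 734 CPM at 48 h, of which Etv5 made up 82.4% to 85.4%. The other 7 held 355 to 367 CPM at 24 h and 318 to 329 CPM at 48 h, so their sum was lower in every 48 h library. Gabpa was the largest part of that sum, with means of 202 CPM at 24 h and 172 CPM at 48 h. A ratio of the 2 sums therefore rests largely on Etv5 and Gabpa. The ratio of the summed levels per kb, PEA3 over other, was 2.36, 2.42 and 2.44 at 24 h and 2.82, 2.79 and 2.73 at 48 h. Groups did not overlap in this ratio. No test was made of a score over members, and with 3 genes against 7 no difference between the groups of genes is claimed.

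**Figure D3:**
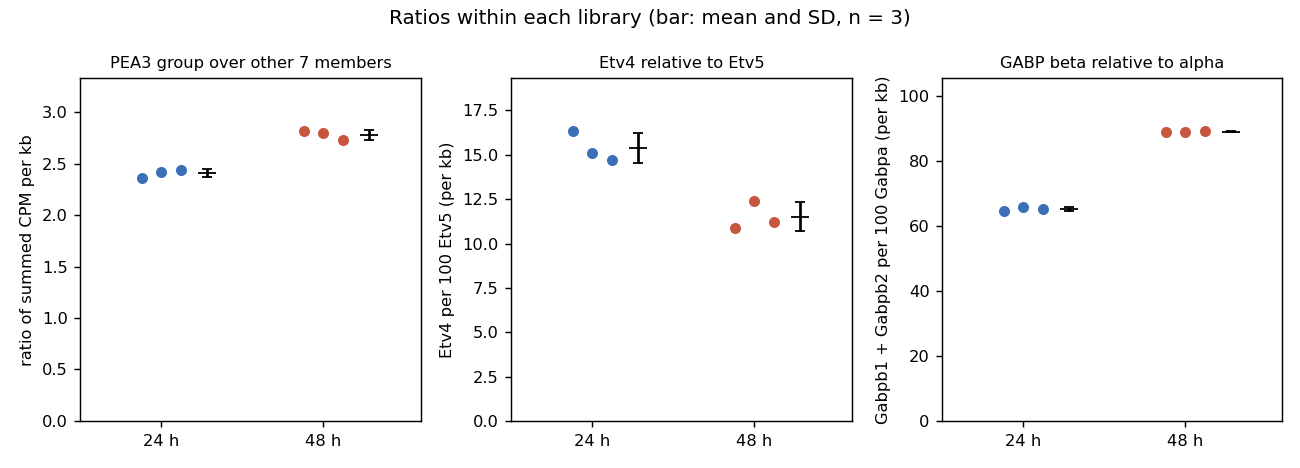
Ratios within each library, with 1 point per library and bars for the mean and SD of 3 libraries (axes from 0), of the summed PEA3 level over that of the other 7 members, of Etv4 per 100 Etv5, and of Gabpb1 plus Gabpb2 per 100 Gabpa, all per kb of length. In each panel the 24 h and 48 h points are separate, with the middle one lower at 48 h and the others higher.

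Partners and regulators of these factors were listed as 13 genes. All were tested, 7 rose, 2 fell and 4 did not pass, with a median log2 fold change of 0.12. The share called was 69.2%, against 62.8% of all genes tested, and upward calls made up 30.9% of all genes tested. The beta subunits of GABP rose while the alpha subunit fell. Gabpb1 went from 56.9 ± 0.954 to 65.1 ± 3.97 CPM (SD, n = 3), or by 0.20 on the log2 scale (adjusted p = 0.000699), and Gabpb2 from 110.8 ± 2.30 to 130.5 ± 3.38 CPM, or by 0.24 (adjusted p = 1.89e-06). Per kb of the longest annotated transcript, Gabpb1 plus Gabpb2 stood at 64.8, 65.9 and 65.2 per 100 Gabpa at 24 h and at 89.2, 88.9 and 89.5 at 48 h. The size of this ratio depends on the length chosen, as the longest annotated length of Gabpa is 4987 bases and the median 816.

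Srf, the partner of the ternary complex factors, rose from 32.9 ± 0.906 to 50.2 ± 0.122 CPM (SD, n = 3), or by 0.61 on the log2 scale (adjusted p = 8.47e-10), while all of Elk1, Elk3 and Elk4 fell. Per kb of the longest annotated transcript, Srf stood at 80.1 to 82.2 per 100 of the summed Elk level at 24 h and at 155 to 162 at 48 h. The size of this ratio also depends on the length chosen. Cic, the Capicua repressor of PEA3 genes, whose repression ERK relieves, fell by 11.2% (adjusted p = 2.94e-05). Its partner Atxn1l rose by 0.28 (adjusted p = 2.12e-05). Atxn1, counted above among the genes that fell, changed by -1.30 on the log2 scale (adjusted p = 0.00286). It had 16, 22 and 25 counts at 24 h and 10, 7 and 9 at 48 h. It therefore passed the filter through its 24 h libraries, where it was higher, and its p-value depends on that. With at least 10 counts required in every library, Atxn1 was not tested. Cop1, a ubiquitin ligase subunit that targets PEA3 proteins for degradation, rose by 0.25 on the log2 scale (adjusted p = 0.000317). The coactivators Ep300 and Crebbp rose by 0.13 and 0.12 on the log2 scale. Crebbp lost its call when libraries were scaled by their totals alone (0.06, adjusted p = 0.0869).

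A list of 17 further ETS genes was examined next. It includes Etv3l, which GENCODE M21 annotates as an unprocessed pseudogene. Only 7 were tested, as the other 10 had at most 10 counts in any library. These untested genes include Fli1, Erg, Etv2 and Spi1, which are known from endothelial and blood cells, and Elf5, which is known from trophoblast. Of the 7 tested, 6 fell, 0 rose and Elf2 did not pass (log2 fold change -0.09, adjusted p = 0.0775). The share that fell was 85.7%, against 31.9% of all genes tested. All 7 log2 fold changes in edgeR were negative, from -3.08 to -0.09, so 0 rose at an unadjusted p under 0.05 as well. Spic, a PU.1 relative, measured 6.26, 5.96 and 7.16 CPM at 24 h and 0.736, 0.640 and 0.902 CPM at 48 h, where it had 16, 14 and 20 counts. The groups did not overlap, and the change was -3.08 ± 0.17 (SE) on the log2 scale (adjusted p = 1.28e-10). Elf3, an epithelial ETS factor, fell from 24.1 ± 1.96 to 6.02 ± 0.503 CPM (SD, n = 3), a fall of 75.0% (adjusted p = 6.16e-12). Elf4 fell from 17.5 ± 1.09 to 6.36 ± 0.162 CPM, which is -1.46 on the log2 scale (adjusted p = 1.86e-10). The ERK-regulated repressor Erf and its relative Etv3 both fell by 0.34 on the log2 scale, and Elf1 fell by 0.38 on that scale.

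**Figure D4:**
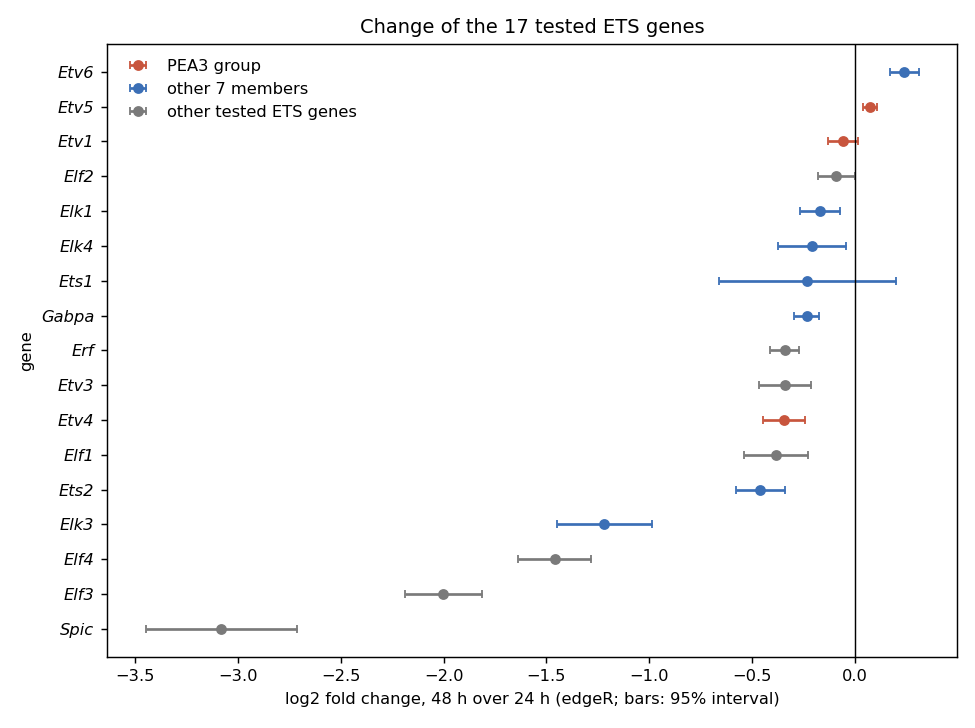
Log2 fold change from 24 h to 48 h of the 17 tested ETS genes, with 95% intervals from edgeR, for the PEA3 group, the other 7 members and 7 further ETS genes. Only Etv6 and Etv5 lie above 0 with their whole interval, and Elk3, Elf4, Elf3 and Spic are the lowest.

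Across the 27 listed ETS genes, Etv3l included, 17 were tested, of which 12 fell, 2 rose and 3 did not pass. The share that fell was 70.6%, against 31.9% of all genes tested. At least 2-fold falls were seen for 4 of them (Elk3, Elf3, Elf4 and Spic). The summed embryonic stem cell, primitive endoderm, trophoblast, and endothelial and blood markers given above were also lower at 48 h. Not all genes of these lists fell. Utf1 rose by 0.60 on the log2 scale (edgeR adjusted p = 1.88e-12). Tal1, with at most 22 counts in a library, rose by 0.95 (adjusted p = 0.038). The endothelial and blood sum was mostly Pecam1. The part of these markers in the falls of the ETS genes was not tested.

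Other genes of the FGF-ERK pathway were listed beside the ETS genes. Of 14 feedback and target genes other than ETS genes, 13 were tested, 7 rose, 1 fell and 5 did not pass, with a median log2 fold change of 0.29. The share called was 61.5%, close to the 62.8% of all genes tested. Upward calls made up 30.9% of all genes tested. Dusp6 and Dusp4, ERK phosphatases, rose by 0.39 and 2.03 on the log2 scale (adjusted p = 9.53e-07 and 6.39e-15). Spry4, a Sprouty inhibitor, rose by 0.66 (adjusted p = 2.44e-09). Of the PEA3 genes, Etv5 rose (0.08) and Etv4 fell (-0.34), and Etv1 did not pass (-0.06). Spred2 (-0.07, adjusted p = 0.0449) and Spry1 (0.29, adjusted p = 0.0191) lost their calls in several alternatives.

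Of 16 receptor and cascade genes, 11 rose, 2 fell and 3 did not pass, with a median of 0.15. The share called was 81.2%, against 62.8% of all genes tested, and upward calls made up 30.9% of all genes tested. Frs2, an adaptor of FGF receptors and 1 of the 11 (0.10, adjusted p = 0.0177), lost its call in 4 of 16 alternatives. Fgfr2 rose from 4.07 ± 0.0600 to 33.3 ± 1.22 CPM (SD, n = 3), or by 3.03 on the log2 scale (adjusted p = 3.68e-15), and its counts were fractional. Mapk3, which encodes ERK1, rose by 0.33 on the log2 scale (adjusted p = 8.29e-06), while Map2k1, which encodes MEK1, fell by 0.39 (adjusted p = 3.18e-09). Protein levels and phosphorylation were not measured.

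**Figure D5:**
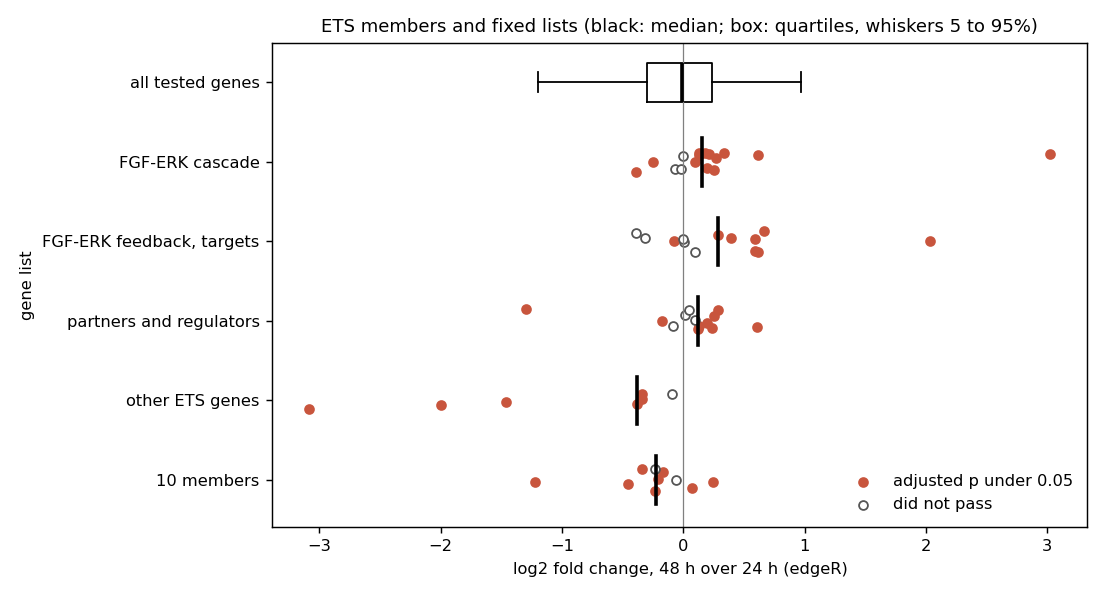
Log2 fold changes from 24 h to 48 h of the 10 members and of 4 gene lists, below a box of all 14889 genes tested. Filled points are genes that passed at an adjusted p under 0.05, open points are the rest and black lines are medians. The medians of the members and the other ETS genes lie below 0 (-0.22 and -0.38), and those of the other 3 lists above 0 (0.12, 0.29 and 0.15).

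Promoter windows from RefSeq (GRCm38.p6, 250 bases before to 50 after each annotated start) were found for 8 of the 10 members, 12 windows in all. They were searched because several members fell together. Etv4 and Ets1 had no window, so their promoters were not searched. The ETS motif CCGGAA, on either strand, was present in 2 of the 12 windows, 1 of Elk4 and 1 of Gabpa, and in 14.9% of 32851 windows of the same length. The matches are shown with the motif in capitals, on the strand of the gene.
Elk4: ccggcccctcccCCGGAAgtgacgctcgcg
Gabpa: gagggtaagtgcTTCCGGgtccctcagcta
They lie at chr1:132007540-132007569 and chr16:84835020-84835049, both plus strand, and the Gabpa match reads CCGGAA on the opposite strand. The longer form CCGGAAGT, which contains the first motif, was in the Elk4 window only and in 3.89% of all windows. The Capicua motifs TGAATGAA and TGAATGGA and the CArG box of SRF, on either strand, were in 0 of the 12 windows, against 1.3%, 1.21% and 1.63% of all windows. A match is a match of letters, and binding was not measured.

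The genes most like each PEA3 gene over the 6 libraries were listed by Pearson correlation of log2 CPM among 10427 genes whose mean level reached 5 CPM, as a description. They were Stxbp2, Unc50 and Slc27a1 for Etv4 (r from 0.9965 to 0.9991), Wdr77, Cnot3 and Ranbp3 for Etv5 (0.9975 to 0.9982) and Sptssa, Cirbp and Syce1 for Etv1 (0.9849 to 0.9922). A correlation above 0.95 was reached by 472, 1491 and 17 genes for Etv4, Etv5 and Etv1. All points share the 2 time groups, so genes that differ between the times in the same way correlate whatever else they share.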

How the data were processed

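Messenger RNA libraries of R1 embryonic stem cells, 3 at 24 h and 3 at 48 h of FGF2, were compared. The authors deposited 1 table of RSEM estimated counts per gene, not scaled for depth or length. Per the submitters' processing notes, cutadapt 1.9.1, STAR 2.5.2, RSEM 1.3.0 and GRCm38 were used. The annotation, filters and use of strand are not given in the sources used here. Symbols came from GENCODE M21 (51633 of 51912 identifiers), as did lengths and exons. No column lacked a sample.

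Estimated counts were rounded, filtered with filterByExpr (minimum count 10), scaled by TMM and compared with edgeR 4.0.16 (R 4.3.3, glmQLFit and glmQLFTest, group as the only term), with Benjamini-Hochberg adjustment over 14889 genes. The standard error is the fold change divided by the square root of F. CPM are relative to the TMM-scaled total. The median log2 fold change of all genes tested was -0.01.

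All members are named, and listed genes may be named. The members and lists were chosen with earlier results of these data known. Lists are described by counts, with no set test, and single values of some listed genes are not reported here. Genes most alike to each PEA3 gene are named by correlation. Chosen after seeing the data were the signature stretch, the 50-base stretches, the promoter motifs, the GABP and SRF ratios, the overlapping genes and the order by median transcript length. Alternatives were RLE, upper quartile and library size scaling, 2 filters, DESeq2 1.42.0, limma 3.58.1 voom, unrounded counts, a replicate block, a threshold of 0.01 and leaving out each library.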

Additional observations from a re-analysis of the deposited data

How the results depend on the processing

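Over 16 alternative settings, 7 or 8 of the 10 members were called and no member changed direction where it was called. Of the single member values, 153 kept their side of the threshold, 6 lost their call and 1 gained one. When libraries were scaled by their totals alone, the median log2 fold change was -0.12 for the PEA3 group and -0.29 for the other 7 members, Etv5 lost its call and Etv1 gained one, and the median of all genes was -0.07. Leaving out 1 library at a time gave medians of -0.08 to -0.04 for the PEA3 group and -0.27 to -0.19 for the other 7 (-0.19 without replicate 1 of 48 h), a change of the log2 Etv4 to Etv5 ratio of -0.48 to -0.37, and 8737 to 8904 changed genes. DESeq2 called 7986 genes and edgeR 9345.

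With the replicate number as a block, 9235 genes and 8 members were called, and the medians were -0.06 and -0.23. The numbers did not pair the libraries (correlations of -0.046, -0.043 and -0.0085 between same-numbered libraries, and 0 of 6 libraries best matched by their own number). The called list genes, the tested ETS genes and the overlapping genes were followed singly. That choice was made after a first run in which uncalled list genes near 0 (Phlda1, Ptpn11, Il17rd, Mrtfa, Med23 and Fos among them) changed sign between settings. Among the members, Ets1 had the fewest counts and the largest standard error.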
